A study of Mus musculus with 16 samples.

Results

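10 genes that mark mural cells, the pericytes and smooth muscle cells of the vessel wall, were followed across the 4 groups of mice. They were taken by symbol from a gene count table with 25611 entries, and all 10 of 10 were present. All 10 also had enough counts to be among the 16630 genes tested. 6 of them are markers of pericytes (*Pdgfrb*, *Rgs5*, *Cspg4*, *Notch3*, *Kcnj8* and *Abcc9*) and 4 encode proteins of the contractile apparatus of smooth muscle (*Acta2*, *Tagln*, *Myh11* and *Cnn1*).

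The study asked how the thyroid gland responds to iodine shortage when the transcription factor GLIS3 is lost from its follicular cells. RNA-Seq was done on thyroid glands of C57BL/6 mice aged 1 month, with 4 mice in each of 4 groups, and the study states that these glands came from female mice. WT mice received the normal diet NIH-31 (ND) or the low iodine diet TD.95125 from Harlan (LID), and so did the conditional knockouts, called Glis3-Pax8Cre, which the labels give as B6;129-Glis3<tm2Amj> together with the allele Pax8<tm1.1(cre)Mbu>. The mice were weaned at 3 weeks, and per the study's methods the diets lasted 6 days. In Glis3-Pax8Cre mice, Cre is made where *Pax8* is active, which in this gland is the follicular epithelium, and it deletes exon 5 of *Glis3*. The mural cells are therefore not the cells the deletion was designed to reach. Whole glands were used, so each value sums RNA over all cells of the gland, and fewer mural cells cannot be told apart from less RNA per mural cell.

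Total counts per mouse were 73983945, 63894808, 68146516 and 461077969 in WT(ND), and 13892352, 156548225, 53110024 and 48886591 in Glis3-Pax8Cre(ND). They were 82374267, 81559012, 63122523 and 70180349 in WT(LID), and 75933602, 60320453, 85741075 and 55451647 in Glis3-Pax8Cre(LID), each in order of replicate number. The deepest library was WT(ND) replicate 4 and the shallowest Glis3-Pax8Cre(ND) replicate 1. The lowest count of any member in any mouse was 23, for *Cnn1*, so no value rests on a count near 0. Levels are given as CPM, a gene's count scaled to a common library size with trimmed mean of M-values (TMM) factors, and between genes as CPM per kilobase of exon.

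*Glis3* itself was read first, as a check of the labels. Its level was 79.2, 85.8, 81.8 and 45.2 CPM in the WT(ND) mice, 105, 93.0, 101 and 85.8 CPM in the Glis3-Pax8Cre(ND) mice, 125, 174, 165 and 161 CPM in the WT(LID) mice, and 150.3, 119.5, 204 and 185 CPM in the Glis3-Pax8Cre(LID) mice. The counts cover the whole gene and do not separate exon 5, so these levels do not show whether the exon was deleted. The log2 difference between genotypes was 0.08 under LID (adjusted p = 0.81) and 0.40 under ND (adjusted p = 0.157), and neither passed the test. The thyroid label held: the summed level of 6 follicular markers, with *Tg* the most abundant, was 97472 CPM or more in every mouse.

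Pericytes sit on capillaries inside the basement membrane they share with the endothelium, and smooth muscle cells ring the arterioles and larger vessels. Endothelial cells recruit pericytes by releasing platelet-derived growth factor B, which binds the receptor encoded by *Pdgfrb*, and contact between the cells signals through Notch receptors, with NOTCH3 as a receptor typical of mural cells. The thyroid is among the most densely vascularised glands, and its capillaries wrap each follicle and are known to widen and multiply when thyrotropin rises.

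Promoter sequences are shown for 4 members that move with diet or genotype in the values that follow, since genes of smooth muscle are known to be controlled by serum response factor at CArG boxes and Notch target genes by RBPJ. 7 of the 10 members matched an entry of the RefSeq promoter table (GRCm38.p6). Sequences are the 250 bases before the start, 5′ to 3′ on the strand of the gene. *Acta2* lies at chr19:34255374-34255623 (minus strand), *Cnn1* at chr9:22099003-22099252 (plus strand), *Rgs5* at chr1:169655251-169655500 (plus strand) and *Notch3* at chr17:32166891-32167140 (minus strand). Capitals mark CArG boxes with at most 1 mismatch and the RBPJ core TGGGAA, searched on both strands.
Acta2: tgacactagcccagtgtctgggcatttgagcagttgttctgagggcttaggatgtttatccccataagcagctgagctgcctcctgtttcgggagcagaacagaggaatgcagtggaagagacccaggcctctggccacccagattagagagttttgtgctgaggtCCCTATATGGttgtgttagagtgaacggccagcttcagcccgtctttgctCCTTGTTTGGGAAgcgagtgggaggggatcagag
Cnn1: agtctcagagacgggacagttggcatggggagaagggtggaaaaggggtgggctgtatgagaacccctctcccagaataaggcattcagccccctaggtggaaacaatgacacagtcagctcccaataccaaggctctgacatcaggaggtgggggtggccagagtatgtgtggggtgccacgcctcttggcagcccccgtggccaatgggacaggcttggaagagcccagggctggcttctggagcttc
Rgs5: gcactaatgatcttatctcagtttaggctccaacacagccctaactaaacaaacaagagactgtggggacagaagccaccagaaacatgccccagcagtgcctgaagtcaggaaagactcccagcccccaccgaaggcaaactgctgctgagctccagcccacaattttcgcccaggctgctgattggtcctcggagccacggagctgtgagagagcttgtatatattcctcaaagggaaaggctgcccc
Notch3: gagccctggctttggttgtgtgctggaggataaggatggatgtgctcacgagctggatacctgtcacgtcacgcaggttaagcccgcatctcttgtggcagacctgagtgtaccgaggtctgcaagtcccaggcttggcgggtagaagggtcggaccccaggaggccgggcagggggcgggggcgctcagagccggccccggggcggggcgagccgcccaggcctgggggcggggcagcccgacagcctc

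Among the 7 promoters, that of *Acta2* held 2 CArG boxes with 1 mismatch, whose first bases lie 84 and 34 bases before the start. An RBPJ core begins 27 bases before the start and overlaps the later box. The promoter of *Abcc9* held an RBPJ core and no CArG box, and neither motif was found in those of *Cnn1*, *Rgs5*, *Notch3*, *Cspg4* or *Kcnj8*. Of all 32851 promoters of the table, 8.59% held a CArG box with at most 1 mismatch in the same 250 bases, 1.47% an exact one and 21.6% the RBPJ core. A match describes letters only and does not show that a factor binds there.

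The table gives the Entrez identifiers 18596 (*Pdgfrb*), 19737 (*Rgs5*), 121021 (*Cspg4*), 18131 (*Notch3*), 16523 (*Kcnj8*), 20928 (*Abcc9*), 11475 (*Acta2*), 21345 (*Tagln*), 17880 (*Myh11*) and 12797 (*Cnn1*). *Kcnj8* and *Abcc9*, which encode the pore and the regulatory subunit of the same potassium channel, are neighbours on chromosome 6 (142564837 to 142571614 and 142587862 to 142702274, both on the minus strand). They lie 16247 bases apart in the mm10 coordinates deposited with the counts. *Cspg4* (56865104 to 56899870), *Tagln* (45929628 to 45936058) and *Cnn1* (22099253 to 22109221) share chromosome 9, and *Myh11* lies on chromosome 16 (14194527 to 14291408). *Tagln* overlaps *Pcsk7* and *Abcc9* overlaps 5330439B14Rik, and since counting was not stranded, reads from such overlaps cannot be told apart by strand.

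Per kilobase, the order of the mean levels over the 16 mice was *Rgs5* (93.7 CPM per kilobase), *Acta2* (29.9), *Tagln* (26.8), *Abcc9* (15.3), *Pdgfrb* (11.6), *Notch3* (11.4), *Myh11* (6.64), *Kcnj8* (6.00), *Cspg4* (1.79) and *Cnn1* (0.692). The order depended on the group. In WT(ND), *Acta2* (13.7 ± 2.80 CPM per kilobase, SD, n = 4), *Tagln* (13.1 ± 1.99) and *Abcc9* (11.7 ± 2.60) did not differ beyond their spread, and nor did *Pdgfrb* (8.92 ± 1.45) and *Notch3* (8.20 ± 1.35), or *Myh11* (6.53 ± 2.61) and *Kcnj8* (5.74 ± 1.87). In WT(LID), *Acta2* reached 78.2 ± 11.7 and *Tagln* 64.5 ± 7.03 CPM per kilobase, above *Notch3* at 19.7 ± 3.26 and *Pdgfrb* at 16.8 ± 1.96, which did not differ beyond their spread. In Glis3-Pax8Cre(ND), *Abcc9* (18.4 ± 1.01 CPM per kilobase) came after *Rgs5*, and *Acta2* (12.6 ± 4.02), *Tagln* (11.2 ± 1.05), *Pdgfrb* (9.79 ± 2.24), *Kcnj8* (9.06 ± 1.52) and *Notch3* (8.76 ± 1.19) followed, each within the spread of its neighbour. In Glis3-Pax8Cre(LID), *Tagln* (18.4 ± 3.90 CPM per kilobase), *Abcc9* (17.5 ± 3.33) and *Acta2* (15.1 ± 4.19) did not differ beyond their spread. *Rgs5* was the most abundant member per kilobase in each group, from 56.9 ± 12.2 in WT(ND) to 142 ± 29.8 in WT(LID), and *Cnn1* the least abundant, from 0.429 ± 0.0965 in Glis3-Pax8Cre(ND) to 1.27 ± 0.155 in WT(LID).

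*Pdgfrb* encodes the receptor through which pericytes are recruited. Its level was 40.2, 44.2, 56.6 and 54.5 CPM in the WT(ND) mice, 52.1, 70.5, 51.2 and 40.9 CPM in the Glis3-Pax8Cre(ND) mice, 79.0, 88.6, 104 and 96.6 CPM in the WT(LID) mice, and 58.4, 75.7, 61.9 and 44.8 CPM in the Glis3-Pax8Cre(LID) mice. The 4 WT(LID) mice were above each of the other 12 mice, and the other 3 groups overlapped. *Notch3*, the Notch receptor of mural cells, was at 66.3, 53.5, 65.2 and 80.2 CPM in the WT(ND) mice, 64.0, 84.6, 64.6 and 70.3 CPM in the Glis3-Pax8Cre(ND) mice, 123, 159.9, 172 and 184 CPM in the WT(LID) mice, and 67.0, 61.5, 83.3 and 70.6 CPM in the Glis3-Pax8Cre(LID) mice. Here too the WT(LID) mice stood above all others, and the Glis3-Pax8Cre mice on either diet overlapped with WT(ND). *Rgs5* encodes a regulator that shortens signalling by G proteins, and its level was 207, 229, 334 and 264 CPM in the WT(ND) mice, 419, 469, 414 and 350.0 CPM in the Glis3-Pax8Cre(ND) mice, 516, 643, 592 and 833 CPM in the WT(LID) mice, and 405, 461, 376 and 299.9 CPM in the Glis3-Pax8Cre(LID) mice. *Rgs5* was lowest in WT(ND), where replicate 3 alone lay above the lowest Glis3-Pax8Cre(LID) mouse, the Glis3-Pax8Cre groups overlapped in the middle, and the WT(LID) mice were above all others. *Cspg4*, the gene of the surface proteoglycan NG2, was at 8.77, 9.98, 8.38 and 15.9 CPM in the WT(ND) mice, 9.35, 12.9, 9.14 and 10.7 CPM in the Glis3-Pax8Cre(ND) mice, 34.3, 39.9, 38.5 and 39.3 CPM in the WT(LID) mice, and 20.8, 23.1, 38.2 and 23.0 CPM in the Glis3-Pax8Cre(LID) mice. For *Cspg4* all LID mice were above all ND mice in both genotypes, and Glis3-Pax8Cre(LID) replicate 3 lay among the WT(LID) mice while the other 3 of its group lay below them.

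The channel subunits showed another order of groups. *Kcnj8* was at 9.73, 12.9, 21.0 and 14.9 CPM in the WT(ND) mice, 26.2, 26.4, 20.9 and 18.7 CPM in the Glis3-Pax8Cre(ND) mice, 11.8, 6.34, 8.50 and 13.3 CPM in the WT(LID) mice, and 14.4, 17.8, 10.8 and 10.8 CPM in the Glis3-Pax8Cre(LID) mice. Its 4 Glis3-Pax8Cre(ND) mice were above all LID mice of both genotypes, and all other pairs of groups overlapped. *Abcc9* was at 80.6, 78.9, 109 and 123 CPM in the WT(ND) mice, 162, 146, 160.4 and 147 CPM in the Glis3-Pax8Cre(ND) mice, 100.5, 137, 112 and 110.1 CPM in the WT(LID) mice, and 126, 123, 183 and 153 CPM in the Glis3-Pax8Cre(LID) mice. The Glis3-Pax8Cre(ND) mice were above all WT(ND) mice, and the LID groups overlapped.

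Among the contractile genes, *Acta2* encodes the smooth muscle actin. It was at 37.8, 26.3, 24.2 and 32.4 CPM in the WT(ND) mice, 37.1, 32.8, 21.6 and 18.7 CPM in the Glis3-Pax8Cre(ND) mice, 139.5, 166, 182 and 199.98 CPM in the WT(LID) mice, and 30.0, 45.0, 34.9 and 23.1 CPM in the Glis3-Pax8Cre(LID) mice. *Tagln*, the gene of the actin-binding protein transgelin, was at 29.4, 21.8, 23.4 and 29.3 CPM in the WT(ND) mice, 24.5, 23.7, 19.97 and 21.3 CPM in the Glis3-Pax8Cre(ND) mice, 114, 124, 128 and 147 CPM in the WT(LID) mice, and 35.7, 46.1, 37.6 and 27.2 CPM in the Glis3-Pax8Cre(LID) mice. For both genes the 4 WT(LID) mice formed a group of their own, and no other mouse came near it. *Myh11*, the smooth muscle myosin heavy chain, ranged from 24.9 to 66.8 CPM and from 56.4 to 86.2 CPM for WT on ND and LID, and from 30.5 to 52.6 CPM and 32.8 to 45.9 CPM for Glis3-Pax8Cre. *Cnn1*, the gene of calponin, which slows the actin and myosin motor, ranged from 0.904 to 1.92 CPM and from 2.88 to 3.90 CPM for WT, and from 0.865 to 1.44 CPM and 0.861 to 2.31 CPM for Glis3-Pax8Cre on the same diets. *Myh11* varied enough among WT(ND) mice to overlap WT(LID), while *Cnn1* did not.

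**Figure D1:**
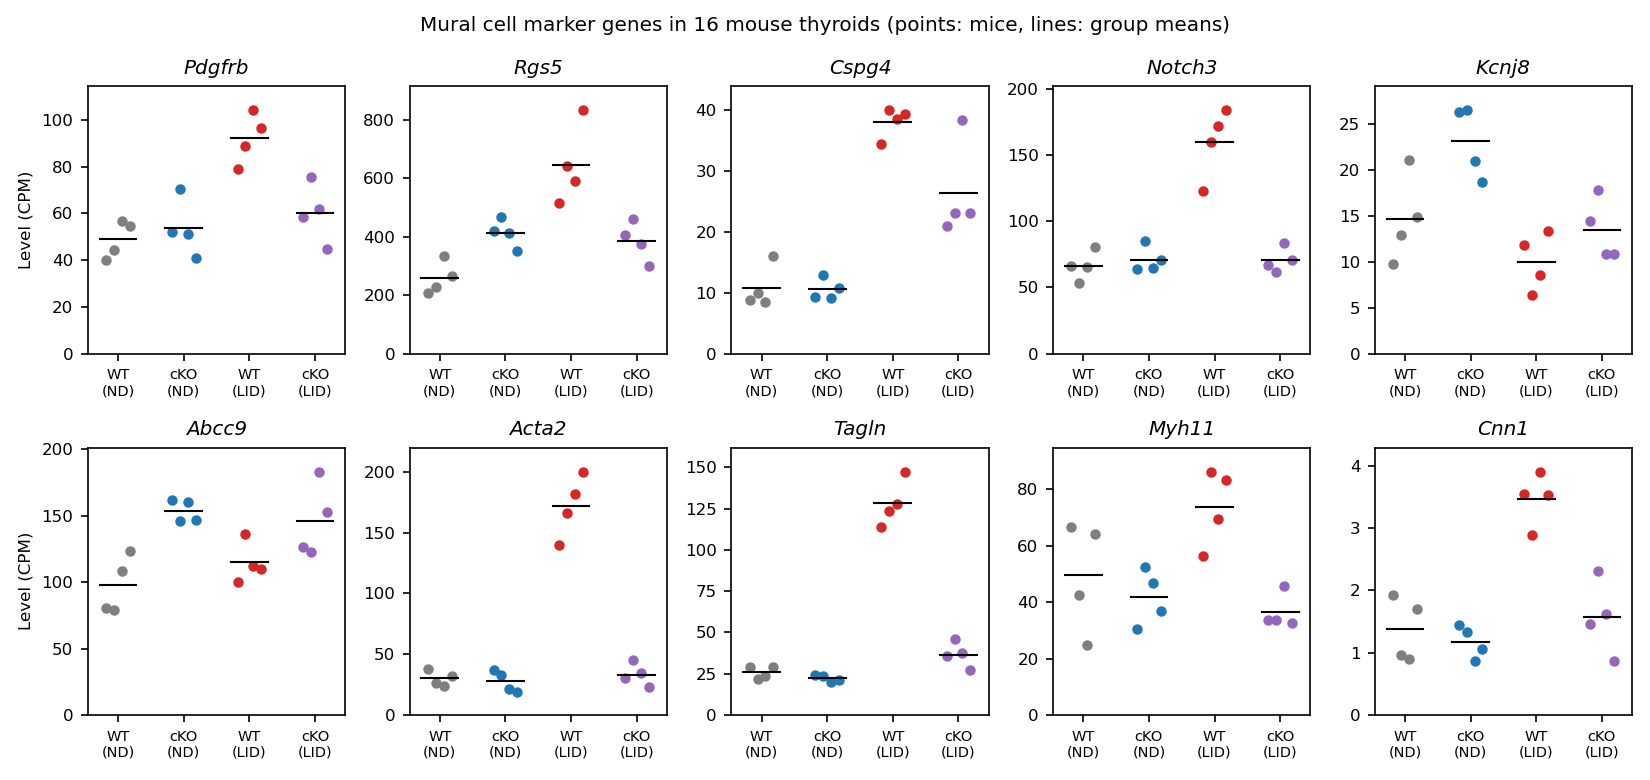
Level of each member in CPM (vertical axis) in each mouse (points) of the 4 groups, with group means as lines; cKO is Glis3-Pax8Cre. *Acta2* and *Tagln* were at 114 CPM or more in each WT(LID) mouse and at 46.1 CPM or less in each other mouse.

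The first comparison asked how the vessel wall genes respond to LID in the WT gland. Among the members, *Acta2* and *Tagln* had the largest responses: *Acta2* was 5.69-fold and *Tagln* 4.94-fold higher in WT(LID) than in WT(ND), and the pericyte genes *Cspg4*, *Rgs5* and *Notch3* rose by 3.52-fold, 2.496-fold and 2.41-fold. *Cnn1* rose 2.51-fold and *Pdgfrb* 1.88-fold. For each of these 7 genes all 4 WT(LID) mice were above all 4 WT(ND) mice, as for 23.7% of all 16630 genes tested, and 0 members were below them in the same way, as 23.3% of all genes were. In edgeR's quasi-likelihood test, with p-values adjusted after Benjamini and Hochberg, where a gene is called at an adjusted p under 0.05, 7 of 10 members were called higher, against 20.9% of all 16630 genes. The log2 fold change was 2.51 for *Acta2* (SE 0.24, adjusted p = 1.9e-06), 2.31 for *Tagln* (SE 0.15, adjusted p = 3.17e-08), 1.82 for *Cspg4* (SE 0.22, adjusted p = 1.26e-05), 1.32 for *Rgs5* (SE 0.18, adjusted p = 2.92e-05), 1.27 for *Notch3* (SE 0.15, adjusted p = 7.84e-06), 1.33 for *Cnn1* (SE 0.29, adjusted p = 0.00199) and 0.91 for *Pdgfrb* (SE 0.17, adjusted p = 0.000664).

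0 of 10 members were called lower in WT(LID) by edgeR, against 20.8% of all genes; 1 was lower at an unadjusted p under 0.05, *Kcnj8*, and DESeq2 called 0. *Kcnj8* had a log2 fold change of -0.55 (SE 0.26, adjusted p = 0.1), and without WT(ND) replicate 1 it was -0.70 with an adjusted p of 0.0448, in a range of 0.0448 to 0.346 over the alternatives. *Abcc9* (0.23, SE 0.15, adjusted p = 0.249) did not pass the test. Nor did *Myh11* (0.57, SE 0.26, adjusted p = 0.0968), which passed without WT(ND) replicate 1 (0.76, adjusted p = 0.0433) and with a skeletal muscle marker score as a covariate, an alternative chosen after seeing the data (0.73, adjusted p = 0.027), in a range of 0.027 to 0.198. The median log2 fold change of the 10 members was 1.29, beside -0.03 over all genes. Scaling by library size alone moved the median of all genes by -0.16 in this comparison and changed the split of calls from 3476 higher and 3467 lower to 2434 higher and 5203 lower, while the same 7 members were called higher.

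The next comparison asked whether the gland lacking GLIS3 in its follicular cells has the same mural gene levels under LID. It had lower levels of all 4 contractile genes: relative to WT(LID), *Acta2* was 5.17-fold, *Tagln* 3.50-fold, *Cnn1* 2.21-fold and *Myh11* 2.02-fold lower. The pericyte genes *Notch3*, *Rgs5* and *Pdgfrb* were lower by factors of 2.26, 1.68 and 1.53. For each of these 7 genes all 4 Glis3-Pax8Cre(LID) mice were below all 4 WT(LID) mice, as for 17.9% of all genes, and 0 members were above them in the same way, against 17.7% of all genes. 7 of 10 members were called lower, against 15.4% of all genes, with log2 fold changes of -2.37 for *Acta2* (SE 0.24, adjusted p = 5.19e-06), -1.81 for *Tagln* (SE 0.15, adjusted p = 3.73e-07), -1.18 for *Notch3* (SE 0.15, adjusted p = 2.35e-05), -1.15 for *Cnn1* (SE 0.29, adjusted p = 0.00778), -1.02 for *Myh11* (SE 0.27, adjusted p = 0.0096), -0.74 for *Rgs5* (SE 0.17, adjusted p = 0.00411) and -0.61 for *Pdgfrb* (SE 0.17, adjusted p = 0.0143).

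0 of 10 members were called higher in Glis3-Pax8Cre(LID) by edgeR, against 14.9% of all genes; 1 was higher at an unadjusted p under 0.05, *Abcc9*, and DESeq2 called 0. *Abcc9* had a log2 fold change of 0.35 (SE 0.15, adjusted p = 0.1) and *Kcnj8* of 0.43 (SE 0.26, adjusted p = 0.231). The lower level of *Cspg4* (log2 fold change -0.53, SE 0.21, adjusted p = 0.0705) did not pass, and depended on single libraries. Without Glis3-Pax8Cre(LID) replicate 3 it was -0.77 (adjusted p = 0.00731), in a range of 0.00731 to 0.226 over the alternatives. Without WT(ND) replicate 4 it was -0.54 (adjusted p = 0.025). That library is in neither group compared here, and how it moved the adjusted p was not tested. *Cspg4* was also called lower by DESeq2 (adjusted p = 0.0475), in fits of the 8 mice alone (adjusted p = 0.0383, and 0.0212 with a replicate block) and without the deepest and the shallowest library (adjusted p = 0.032). The members' median was -0.88, beside 0.01 over all genes. With library size alone the median of all genes moved by 0.15, the split of calls went from 2471 higher and 2557 lower to 4121 higher and 1841 lower, and *Abcc9* was called higher (0.49, adjusted p = 0.0116, in a range of 0.0116 to 0.312).

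**Figure D2:**
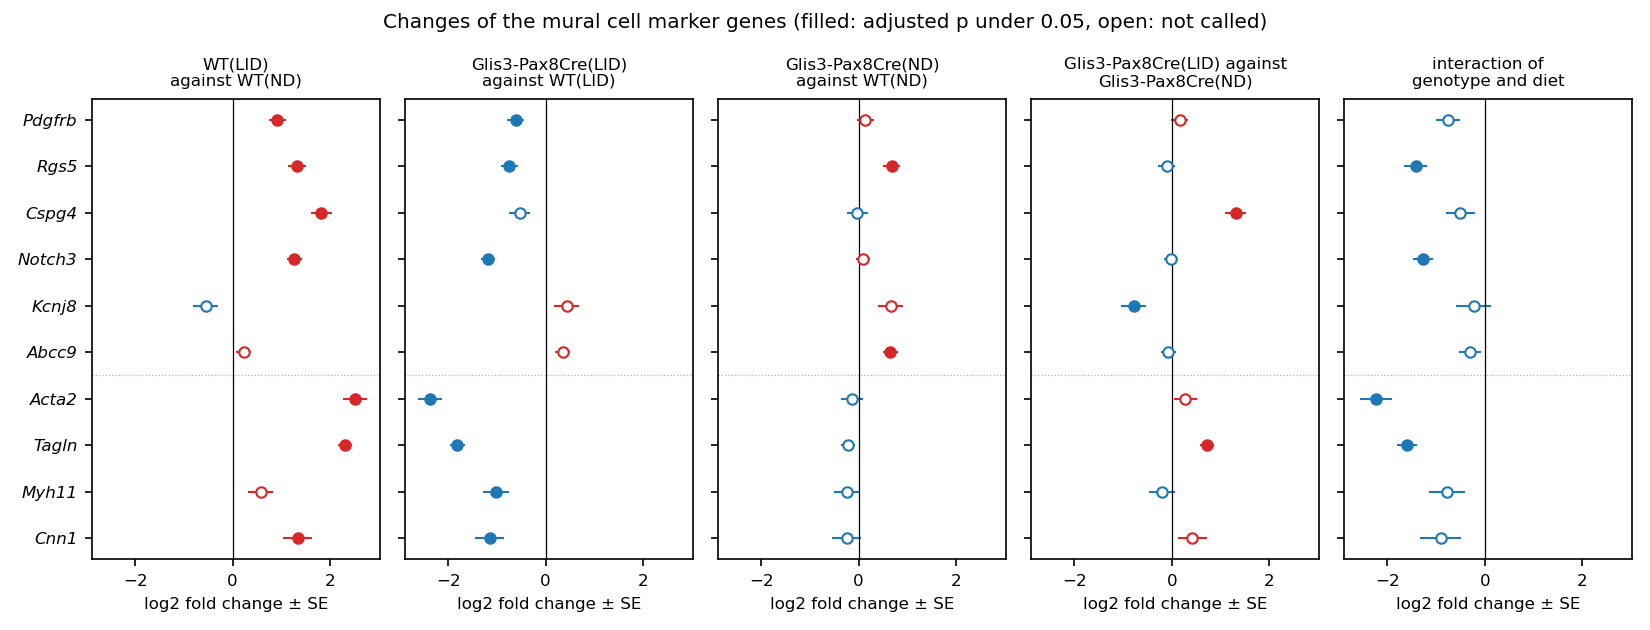
Log2 fold change (horizontal axis, with bars of 1 SE from the fit) of the 10 members in the 4 comparisons and in the interaction of genotype and diet, filled where the adjusted p is under 0.05; cKO is Glis3-Pax8Cre. *Acta2* and *Tagln* had log2 fold changes of 2.51 and 2.31 with LID in WT and of -2.37 and -1.81 between genotypes under LID.

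On the normal diet, the genotypes were compared for differences that precede the shortage of iodine. 2 pericyte genes were higher in Glis3-Pax8Cre(ND) than in WT(ND): *Rgs5* by 1.60-fold and *Abcc9* by 1.57-fold, each with all 4 mice above all 4 WT mice, as for 9.58% of all genes, while 0 members had all 4 mice below, against 9.96% of all genes. 2 of 10 members were called higher, against 10.3% of all genes, with a log2 fold change of 0.67 for *Rgs5* (SE 0.17, adjusted p = 0.0137) and 0.65 for *Abcc9* (SE 0.15, adjusted p = 0.00858). *Kcnj8*, the partner of *Abcc9*, had a log2 fold change of 0.66 (SE 0.26, adjusted p = 0.0846), which passed with DESeq2 (adjusted p = 0.0434) and without WT(ND) replicate 3 (0.90, adjusted p = 0.0205), in a range of 0.0205 to 0.23. 0 members were called lower by edgeR, against 9.25% of all genes, with 0 at an unadjusted p under 0.05 and 0 by DESeq2. The contractile genes had log2 fold changes of -0.14 (*Acta2*), -0.22 (*Tagln*), -0.25 (*Myh11*) and -0.24 (*Cnn1*), with adjusted p-values of 0.717, 0.305, 0.543 and 0.604, and *Pdgfrb* (0.14), *Notch3* (0.10) and *Cspg4* (-0.03) did not pass either. The median over the members was 0.03, beside 0.02 over all genes.

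The higher *Rgs5* in Glis3-Pax8Cre(ND) was no longer called when the 8 mice were fitted alone with a replicate block (log2 fold change 0.71, adjusted p = 0.059) or without WT(ND) replicate 4 and Glis3-Pax8Cre(ND) replicate 1 together, the deepest and the shallowest library (0.68, adjusted p = 0.0577), in a range of 0.0014 to 0.059, so the log2 fold change was not smaller in either than the 0.67 of all 16 mice. *Abcc9* lost its call when the 4 libraries with over 100 CPM of thymocyte markers were left out (0.59, adjusted p = 0.0575), in a range of 0.000538 to 0.0575. Both leave-out alternatives were chosen after seeing the data. Scaling by library size alone moved the median of all genes by 0.12 and the split of calls from 1714 higher and 1538 lower to 2722 higher and 935 lower, and turned the log2 fold change of *Cspg4* to 0.10.

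In Glis3-Pax8Cre mice the response to LID was then read on its own. *Cspg4* was 2.49-fold and *Tagln* 1.64-fold higher in Glis3-Pax8Cre(LID) than in Glis3-Pax8Cre(ND), and *Kcnj8* was 1.71-fold lower, each with no overlap between the 4 and 4 mice. Of all genes, 11.8% were higher and 10.2% lower with no overlap in the same comparison. 2 of 10 members were called higher, against 13.1% of all genes, with log2 fold changes of 1.32 for *Cspg4* (SE 0.22, adjusted p = 0.000537) and 0.71 for *Tagln* (SE 0.14, adjusted p = 0.00231). 1 of 10 was called lower, against 12.3% of all genes: *Kcnj8*, with a log2 fold change of -0.78 (SE 0.26, adjusted p = 0.0378). *Acta2* (0.28, adjusted p = 0.405), *Notch3* (-0.01, adjusted p = 0.982), *Rgs5* (-0.10, adjusted p = 0.706), *Pdgfrb* (0.17, adjusted p = 0.512), *Abcc9* (-0.07, adjusted p = 0.765), *Myh11* (-0.20, adjusted p = 0.62) and *Cnn1* (0.43, adjusted p = 0.312) did not pass. The median was 0.08 over the members and -0.03 over all genes, which library size alone moved by -0.13, with the split of calls going from 2184 higher and 2039 lower to 1297 higher and 3385 lower.

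The adjusted p of *Kcnj8* crossed the threshold when single libraries were left out, while its log2 fold change stayed between -0.94 and -0.68 over the 16 fits. It was -0.71 without Glis3-Pax8Cre(ND) replicate 1 (adjusted p = 0.0806), -0.70 without Glis3-Pax8Cre(ND) replicate 2 (adjusted p = 0.0937), -0.81 without Glis3-Pax8Cre(LID) replicate 1 (adjusted p = 0.0598), -0.69 without Glis3-Pax8Cre(LID) replicate 3 (adjusted p = 0.0992) and -0.68 without Glis3-Pax8Cre(LID) replicate 4 (adjusted p = 0.096). In this comparison mice with the same replicate number resembled each other over all genes, with correlations of their deviations from the group means of 0.21, 0.29, 0.63 and 0.65. They did not in the others, with 0.10, -0.10, -0.52 and -0.26 between genotypes under LID. The values were -0.37, -0.17, -0.03 and -0.06 between genotypes under ND, and 0.14, -0.17, 0.07 and 0.10 with LID in WT. What the replicate numbers stand for is not stated. In a fit of all 16 mice with a replicate block, the log2 fold change of *Kcnj8* was -0.78 with an adjusted p of 0.0716, in a range of 0.00362 to 0.0992, while *Cspg4* (1.32, adjusted p = 0.00105) and *Tagln* (0.72, adjusted p = 0.00582) were called. Fitted as pairs within the 8 mice of the comparison, all 3 were called: *Kcnj8* at -0.80 (adjusted p = 0.00362), *Cspg4* at 1.28 (adjusted p = 0.00447) and *Tagln* at 0.69 (adjusted p = 0.00961). Over the alternatives the adjusted p of *Cspg4* ranged from 7.19e-08 to 0.00463 and that of *Tagln* from 4.68e-05 to 0.0145.

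Whether the response to LID differs between genotypes was tested as the interaction of genotype and diet. *Acta2*, *Tagln*, *Rgs5* and *Notch3* responded less to LID in Glis3-Pax8Cre mice than in WT mice. The difference between the log2 changes was -2.23 for *Acta2* (SE 0.33, adjusted p = 0.000493), -1.59 for *Tagln* (SE 0.20, adjusted p = 0.000126), -1.42 for *Rgs5* (SE 0.24, adjusted p = 0.00145) and -1.27 for *Notch3* (SE 0.20, adjusted p = 0.000796). 4 of 10 members were called lower, against 7.41% of all genes. 0 were called higher by edgeR, against 4.43% of all genes, with 0 at an unadjusted p under 0.05 and 0 by DESeq2. The other 6 did not pass, among them *Cspg4* (-0.50, adjusted p = 0.311), which rose with LID in both genotypes, *Cnn1* (-0.90, adjusted p = 0.178), *Myh11* (-0.77, adjusted p = 0.207), *Abcc9* (-0.30, adjusted p = 0.411) and *Kcnj8* (-0.23, adjusted p = 0.741). *Pdgfrb* (-0.75, SE 0.25, adjusted p = 0.0603) passed with DESeq2 (adjusted p = 0.0253) and with a filter of 10 counts in every mouse (adjusted p = 0.0455). It also passed without WT(ND) replicate 3 (adjusted p = 0.0431), Glis3-Pax8Cre(ND) replicate 4 (adjusted p = 0.0237) or Glis3-Pax8Cre(LID) replicate 2 (adjusted p = 0.0309), in a range of 0.0237 to 0.116. The median was -0.84 over the members and -0.01 over all genes.

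These comparisons share groups: WT(LID) stands in the WT diet comparison and in the genotype comparison under LID, with opposite sign. A high level in WT(LID) therefore enters both, as for *Acta2* with 2.51 and -2.37, *Tagln* with 2.31 and -1.81, *Notch3* with 1.27 and -1.18, *Cnn1* with 1.33 and -1.15, *Rgs5* with 1.32 and -0.74 and *Pdgfrb* with 0.91 and -0.61. *Cspg4* had 1.82 and -0.53, with the latter not called, and *Myh11* had 0.57, not called, and -1.02.

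Other genes of the same cells were read from lists of markers. Where a count of 0 genes called by edgeR is printed below for a list, 0 were also past an unadjusted p under 0.05 and 0 called by DESeq2, unless other counts are given. This does not extend to lists and comparisons whose counts are not printed. The shares of all genes called higher and lower, to hold the counts of each list against, were 20.9% and 20.8% with LID in WT, 14.9% and 15.4% between genotypes under LID, 10.3% and 9.25% between genotypes under ND, 13.1% and 12.3% with LID in Glis3-Pax8Cre mice, and 4.43% and 7.41% in the interaction. Of 16 other pericyte genes, 11 were called higher and 2 lower in WT(LID) against WT(ND), with a median log2 fold change of 0.89, and 1 was called higher and 8 lower in Glis3-Pax8Cre(LID) against WT(LID), with a median of -0.51. Among the most abundant, *Mcam*, an adhesion molecule, rose by 1.21 with diet (adjusted p = 2.2e-05) and was at -0.64 between genotypes under LID (adjusted p = 0.00488), and *Ndufa4l2*, a mitochondrial protein, had 1.15 (adjusted p = 0.00119) and -0.85 (adjusted p = 0.0131). *Anpep*, an aminopeptidase, went the other way with diet (-1.52, adjusted p = 0.00182) and had -0.47 between genotypes (adjusted p = 0.296), and *Steap4*, a metalloreductase, had 0.05 (adjusted p = 0.869), turning to -0.11 with library size alone, and 0.34 (adjusted p = 0.195). Between genotypes under ND, 2 were called higher (*Ednra* and *Steap4*) and 0 lower by edgeR, with 1 lower at an unadjusted p under 0.05, *Anpep*, which DESeq2 called. In Glis3-Pax8Cre mice 2 were called higher and 3 lower with diet. These counts of 16 are near the shares over all genes, and the interaction was called lower for 6 and higher for 0.

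Of 18 other smooth muscle genes, 10 were called higher and 1 lower in WT with LID (median 0.92), and 1 higher and 13 lower between genotypes under LID (median -0.92). *Actg2*, the other smooth muscle actin, had the largest change in the list, with mean levels of 0.784 and 6.24 CPM for WT on ND and LID, and of 0.645 and 0.722 CPM for Glis3-Pax8Cre. Its change on the log2 scale was 2.98 with diet in WT (adjusted p = 7.24e-07) and -3.11 between genotypes under LID (adjusted p = 8.38e-07). *Myl9*, a myosin light chain, had 1.53 (adjusted p = 2.02e-05) and -1.30 (adjusted p = 0.000126), and *Srf*, the gene of serum response factor, had 0.32 (adjusted p = 0.062) and -0.47 (adjusted p = 0.0148). *Tpm1*, a tropomyosin found in many cell types, had 0.50 (adjusted p = 0.0363) and 0.10 (adjusted p = 0.732), and *Tpm2* did not pass in any of the 5 tests. The listed gene called in the opposite directions was *Pln*, the gene of phospholamban, at -1.96 (adjusted p = 0.000634) and 1.35 (adjusted p = 0.0121). 1 gene, *Itga8*, was called lower between genotypes under ND and 0 higher (2 at an unadjusted p under 0.05), 2 were called higher with diet in Glis3-Pax8Cre mice and 0 lower (3 at an unadjusted p under 0.05), and the interaction was called lower for 9 and higher for 1.

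Of 12 paralogs of the contractile members, most of them made in many cell types, 7 were called higher and 1 lower with LID in WT (median 0.90), and 6 lower and 0 higher between genotypes under LID (median -0.31). The cytoplasmic actins *Actb* and *Actg1* had 0.79 (adjusted p = 0.000255) and 1.04 (adjusted p = 2.25e-06) with diet in WT, and -0.23 (adjusted p = 0.216) and -0.53 (adjusted p = 0.0013) between genotypes under LID. *Tagln2* had 1.07 (adjusted p = 5.84e-07) and -0.42 (adjusted p = 0.00279), and *Cnn3* 1.02 (adjusted p = 2.01e-07) and -0.10 (adjusted p = 0.376), the latter turning to 0.05 with library size alone. *Cnn3* also rose with LID in Glis3-Pax8Cre mice (0.88, adjusted p = 4.96e-06).

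Genes of platelet-derived growth factors and their receptors, and of Notch signalling, were read as lists of their own. *Pdgfb*, the ligand of the receptor encoded by *Pdgfrb*, was 2.16-fold higher with LID in WT (log2 fold change 1.11, adjusted p = 1.42e-05) and 2.11-fold lower between genotypes under LID (-1.08, adjusted p = 2.74e-05). *Pdgfd*, another ligand of that receptor, was higher in Glis3-Pax8Cre(ND) than in WT(ND) (0.99, adjusted p = 0.000173) and higher with LID in WT (0.82, adjusted p = 0.000147), with 0.08 between genotypes under LID (adjusted p = 0.698). *Pdgfa* was lower in Glis3-Pax8Cre mice under LID (-0.77, adjusted p = 0.000544) and under ND (-0.63, adjusted p = 0.00515), and *Pdgfra*, the receptor typical of fibroblasts, fell with LID in WT (-0.86, adjusted p = 0.00379). Of the 5 genes of this list, 2 were called higher and 1 lower with diet in WT (median 0.05), where 20.9% and 20.8% of all genes were. Between genotypes 0 were called higher and 2 lower under LID (median -0.53), against 14.9% and 15.4% of all genes, and 1 higher and 2 lower under ND (median -0.08), against 10.3% and 9.25%. *Pdgfc* did not pass in any of the 5 tests. With library size alone the genes at these medians turned sign, *Pdgfa* from 0.05 to -0.10 with diet in WT and *Pdgfc* from -0.08 to 0.05 between genotypes under ND.

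Of 12 Notch ligands, receptors and targets, 9 were called higher and 0 lower with LID in WT (median 0.95), 1 higher and 8 lower between genotypes under LID (median -0.61), and 2 higher and 0 lower between genotypes under ND (median 0.03). *Nrarp*, a target that restrains Notch signalling, had the largest change (2.09, adjusted p = 3.17e-08 with diet in WT, and -1.70, adjusted p = 2.81e-07 between genotypes under LID). *Notch1*, which endothelial cells also use, had 1.73 (adjusted p = 2.78e-06) and -0.81 (adjusted p = 0.00251). The target *Heyl* was higher in Glis3-Pax8Cre(ND) than in WT(ND) by 1.08 (adjusted p = 2.76e-06), which sets it beside *Rgs5* and *Pdgfd*, and had 1.28 with diet in WT (adjusted p = 5.71e-08) and -0.30 between genotypes under LID (adjusted p = 0.0165). *Hes1*, a target in many cell types, rose with LID in both genotypes (0.45, adjusted p = 0.00794 in WT and 0.53, adjusted p = 0.00569 in Glis3-Pax8Cre), and *Notch2* did not pass in any of the 5 tests. In the interaction 7 were called lower and 0 higher.

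The other pair of channel genes, *Kcnj11* and *Abcc8*, which form the channel in neurons and endocrine cells, were both called lower in the 4 comparisons of groups. With diet in WT, *Abcc8* had -1.11 (adjusted p = 0.000457) and *Kcnj11* -0.96 (adjusted p = 0.00601), and between genotypes under ND they had -1.24 (adjusted p = 0.000832) and -0.83 (adjusted p = 0.0315). Between genotypes under LID they had -0.79 (adjusted p = 0.00773) and -0.74 (adjusted p = 0.0366), and with LID in Glis3-Pax8Cre mice, where *Kcnj8* was called lower too, -0.66 (adjusted p = 0.027) and -0.87 (adjusted p = 0.0201). Neither was called in the interaction.

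**Figure D3:**
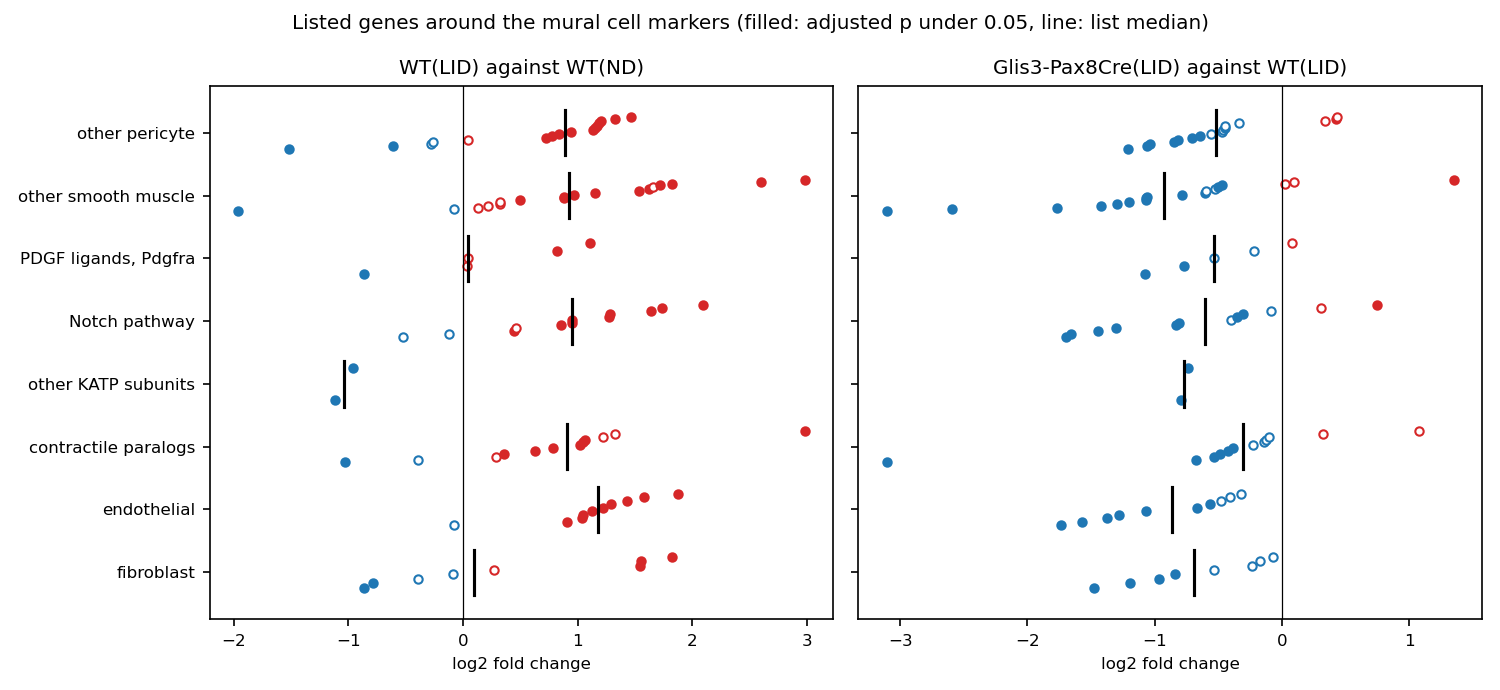
Log2 fold change (horizontal axis) of listed genes in WT(LID) against WT(ND) and in Glis3-Pax8Cre(LID) (cKO) against WT(LID), with 1 point a gene, filled where the adjusted p is under 0.05, and a line at the median of each list; the vertical spread within a list has no meaning. The medians of the other smooth muscle genes were 0.92 and -0.92, and those of the endothelial markers 1.17 and -0.87.

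Endothelial markers moved in the same groups. Their summed level over 10 genes was 661, 639, 795 and 752 CPM in the WT(ND) mice, 870.3, 1124, 932 and 802 CPM in the Glis3-Pax8Cre(ND) mice, 1700.3, 1671, 1854 and 1800.4 CPM in the WT(LID) mice, and 787, 1024, 971 and 799 CPM in the Glis3-Pax8Cre(LID) mice. 9 of 10 were called higher and 0 lower with LID in WT (median 1.17), 7 lower and 0 higher between genotypes under LID (median -0.87), 4 higher and 0 lower between genotypes under ND (median 0.31), and 1 higher and 2 lower with LID in Glis3-Pax8Cre mice. In the interaction 9 of 10 were called lower and 0 higher, with a median of -1.20, beside 4 of 10 members called lower with a median of -0.84. The most abundant was *Kdr*, the receptor of vascular endothelial growth factor, and no endothelial marker was at 0 in any mouse. *Cdh5*, the cadherin of endothelial junctions, had 1.87 (adjusted p = 3.37e-07) with LID in WT and -1.73 (adjusted p = 1.01e-06) between genotypes under LID, and *Pecam1* 1.58 (adjusted p = 2.05e-07) and -1.57 (adjusted p = 3.24e-07). Their part in the result was not tested.

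As a ratio to that endothelial sum, the members parted ways. *Acta2* was at 0.0821 to 0.111 in WT(LID), against 0.0305 to 0.0572 in WT(ND), 0.0232 to 0.0427 in Glis3-Pax8Cre(ND) and 0.0289 to 0.0439 in Glis3-Pax8Cre(LID). *Tagln* was at 0.0671 to 0.0818 in WT(LID) and at 0.0454 or less in the other mice. The other contractile members did not share this: *Myh11* was at 0.0313 to 0.101 in WT(ND) and at 0.0332 to 0.0516 in WT(LID), and *Cnn1* at 0.00114 to 0.00290 and 0.00173 to 0.00210. In Glis3-Pax8Cre(LID) they were at 0.0329 to 0.0473 and 0.00108 to 0.00226, overlapping WT(LID). *Pdgfrb* was lower in WT(LID), at 0.0465 to 0.0561, than in WT(ND), at 0.0607 to 0.0724. Its ratio in Glis3-Pax8Cre(LID) was 0.0561 to 0.0742, not below WT(LID), although its CPM was lower there. The ratio of *Notch3* overlapped in all 4 groups (0.0820 to 0.107 and 0.0723 to 0.102 for WT on ND and LID, and 0.0692 to 0.0876 and 0.0601 to 0.0884 for Glis3-Pax8Cre). That of *Rgs5* overlapped between the diets in WT (0.314 to 0.421 and 0.303 to 0.463) and between the genotypes under LID (0.303 to 0.463 and 0.375 to 0.515). *Cspg4* was at 0.0202 or more in all LID mice and at 0.0133 or less in ND mice other than WT(ND) replicates 2 and 4 (0.0156 and 0.0212). *Abcc9* was lowest in WT(LID) (0.0591 to 0.0818) and at 0.120 or more in all other mice, and *Kcnj8* likewise (0.00380 to 0.00738 against 0.0111 or more). These ratios are a description, with no test.

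**Figure D4:**
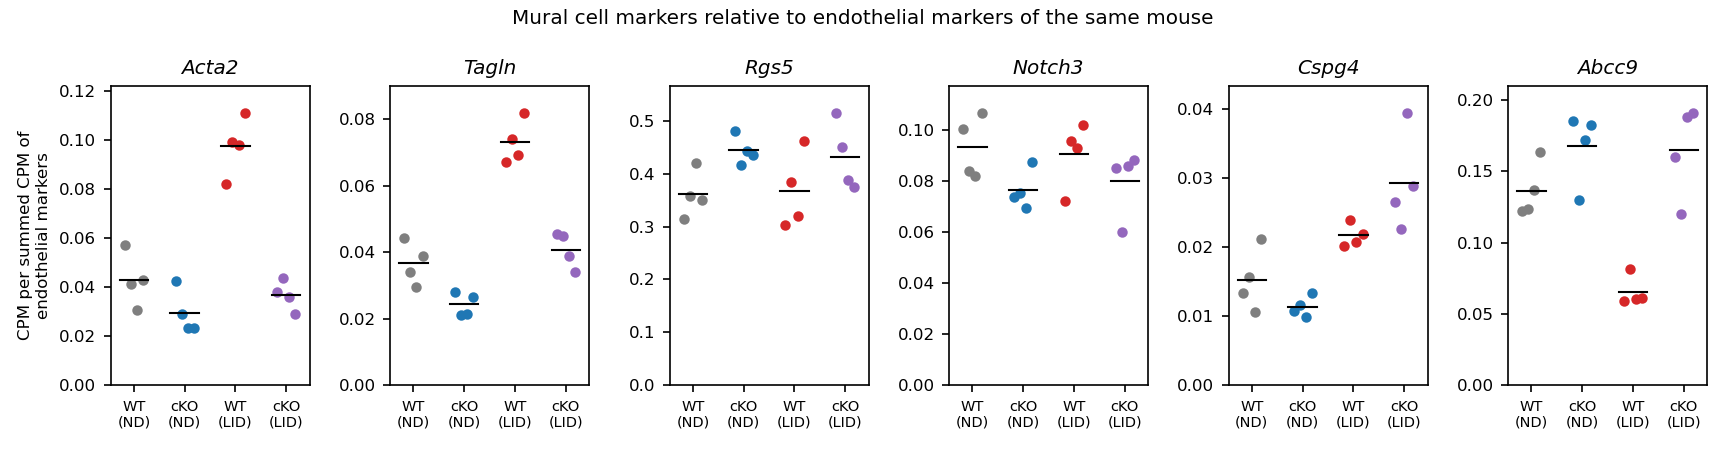
Level of 6 members divided by the summed CPM of 10 endothelial markers (vertical axis) in each mouse (points), with group means as lines; cKO is Glis3-Pax8Cre. *Acta2* had ratios of 0.0821 to 0.111 in WT(LID) and of 0.0572 or less in the other mice, while *Notch3* overlapped in all 4 groups.

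Markers of other tissues were read in the same libraries, since a dissected gland can carry them. Skeletal muscle and thymocyte markers entered alternatives chosen after seeing the data, and the part of the other markers in the result was not tested. 8 fibroblast markers, with *Col1a2* the most abundant and none at 0, summed to 664, 903, 644 and 714 CPM in the WT(ND) mice, 635, 563, 440.4 and 304 CPM in the Glis3-Pax8Cre(ND) mice, 1326, 1210.3, 1311 and 1424 CPM in the WT(LID) mice and 722, 794, 677 and 443 CPM in the Glis3-Pax8Cre(LID) mice. 3 of them were called higher and 2 lower with LID in WT (median 0.09), and 4 lower and 0 higher between genotypes under LID (median -0.69). In the interaction 0 were called higher and 0 lower (2 lower at an unadjusted p under 0.05). Like the sum of the contractile members, this sum was highest in the 4 WT(LID) mice, where *Col1a1* and *Col1a2* had mean levels of 468 and 500 CPM. *Col1a1* was at 1.82 with diet in WT (adjusted p = 1.79e-05) and -1.48 between genotypes under LID (adjusted p = 0.000149), while *Dcn* was called lower with diet in WT (-0.78, adjusted p = 0.0181) and *Dpt* had -0.08 (adjusted p = 0.784).

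Skeletal muscle and thymus markers varied between single mice. 10 skeletal muscle markers, with *Acta1* the most abundant and none at 0 in any mouse, summed to 3.62, 137, 595 and 3.50 CPM in the WT(ND) mice, 1704, 763, 3.03 and 559 CPM in the Glis3-Pax8Cre(ND) mice, 2.92, 84.4, 1483 and 147 CPM in the WT(LID) mice and 295, 1159.5, 3.75 and 353 CPM in the Glis3-Pax8Cre(LID) mice. 9 thymocyte markers, led by *Rag1*, summed to 165, 41.3, 9.66 and 8.42 CPM, then 11.2, 13.6, 13.3 and 2815 CPM, then 4.31, 4.69, 236 and 4.81 CPM, and then 8.03, 8.27, 8.03 and 345 CPM in the same groups, with *Rag1*, *Rag2*, *Dntt* and *Ptcra* at 0 in some mice. In the 5 tests edgeR called 0 of the 10 and 0 of the 9, with 1 thymocyte marker (*Cd4*, between genotypes under ND) at an unadjusted p under 0.05. In WT(LID) replicate 1 the muscle markers summed to 2.92 CPM beside 139.5 CPM of *Acta2*, and in Glis3-Pax8Cre(ND) replicate 1 they summed to 1704 CPM beside 37.1 CPM of *Acta2*. In other mice both were high or both low: 1483 CPM beside 182 CPM of *Acta2* in WT(LID) replicate 3, and 3.50 CPM beside 32.4 CPM in WT(ND) replicate 4. The relation between the muscle markers and *Acta2* over all mice was not tested. With the skeletal muscle score as a covariate *Myh11* was called higher with LID in WT, as given above, and without the 4 libraries with over 100 CPM of thymocyte markers *Abcc9* between genotypes under ND and *Kcnj8* with LID in Glis3-Pax8Cre mice (-0.77, adjusted p = 0.0652) were not called.

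Of 6 adipocyte markers, led by *Ucp1* with none at 0, 0 were called higher and 5 lower with LID in WT, and 1 higher and 0 lower between genotypes under LID. Their sum was 362, 963, 455 and 730.4 CPM in the WT(ND) mice, 405, 306, 208 and 187 CPM in the Glis3-Pax8Cre(ND) mice, 249, 154, 156 and 182 CPM in the WT(LID) mice and 352, 410.2, 388 and 164 CPM in the Glis3-Pax8Cre(LID) mice. 4 airway markers, led by *Bpifa1* with *Bpifb1* at 0 in some mice, summed to 221 CPM in Glis3-Pax8Cre(LID) replicate 1 and to 18.8 CPM or less in each other mouse, with 2 called higher and 1 lower between genotypes under LID. 7 macrophage markers, led by *C1qb*, were all called higher between genotypes under ND, with sums of 194, 239, 292 and 200.5 CPM in the WT(ND) mice and 392, 391, 372 and 334 CPM in the Glis3-Pax8Cre(ND) mice. The macrophage sums were 254, 247, 251 and 272 CPM in the WT(LID) mice and 278, 317, 287 and 230.0 CPM in the Glis3-Pax8Cre(LID) mice, and 2 were called higher with LID in WT.

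5 Schwann cell markers, led by *Pmp22*, summed to between 128 and 255 CPM in each of the 16 mice, with 0 called higher and 2 lower with LID in WT and 1 higher and 1 lower between genotypes under LID. 5 markers of parathyroid and C cells, led by *Pth*, summed to 10770.3, 13316, 15597 and 12313 CPM in the WT(ND) mice, 10992, 8638, 7499 and 6646 CPM in the Glis3-Pax8Cre(ND) mice, 3295, 3201, 5353 and 4132 CPM in the WT(LID) mice and 5304, 4642, 2189.5 and 1479.7 CPM in the Glis3-Pax8Cre(LID) mice, with 0 called higher and 5 lower with LID in WT. 3 of 6 cartilage markers were tested, and 1 was called higher with LID in WT and 2 between genotypes under ND; the sum, led by *Col9a1*, was 38.5 CPM or less in each mouse. Of 7 erythroid entries the 6 globin entries were at 0 in all mice, and *Alas2* alone was tested and not called. Among the follicular markers, 2 were called higher and 1 lower with LID in WT, and 3 higher and 1 lower between genotypes under LID.

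**Figure D5:**
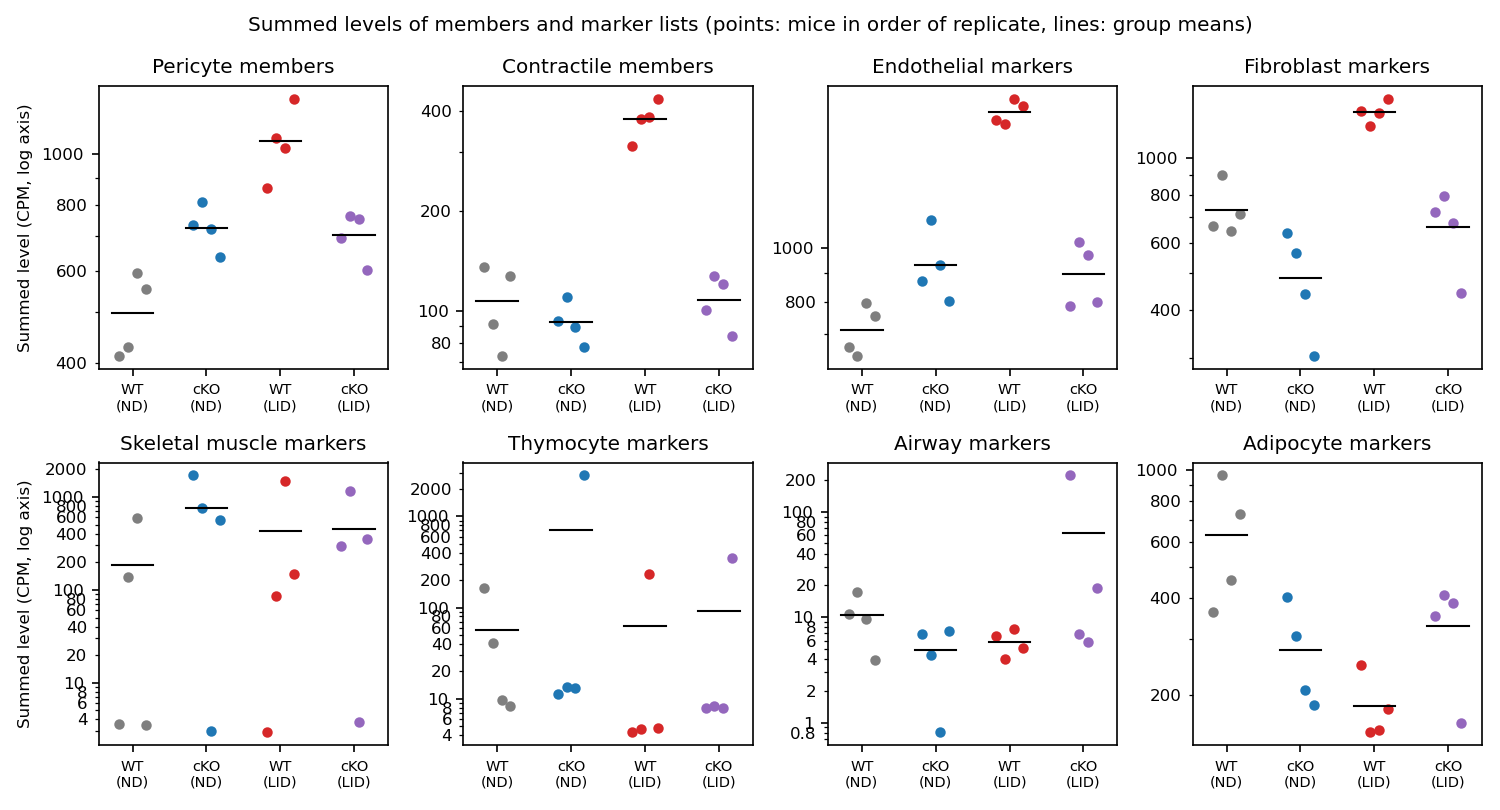
Summed CPM (vertical axis, log scale) of the pericyte members, the contractile members and 6 lists of markers in each mouse (points), with group means as lines; cKO is Glis3-Pax8Cre. The contractile sum lay between 314 and 434 CPM in the WT(LID) mice and at 136 CPM or less in the other mice, and the thymocyte sum reached 2815 CPM in Glis3-Pax8Cre(ND) replicate 4.

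Levels of the members were also correlated with each other across the 16 mice. The points share the 4 groups, so each correlation of log2 CPM is given also after each group's mean was subtracted, as a description. *Acta2* and *Tagln* had a Pearson correlation of 0.98 over the 16 mice and 0.87 after subtraction, *Tagln* and *Cnn1* 0.92 and 0.90, and *Pdgfrb* and *Rgs5* 0.88 and 0.80. Some pairs of a pericyte and a contractile gene were about as high over the 16 mice and lower after subtraction: *Notch3* had 0.92 and 0.27 with *Acta2* and 0.92 and 0.35 with *Tagln*, and *Pdgfrb* had 0.86 and 0.58 with *Acta2*. *Myh11* went less closely with its contractile partners, at 0.72 and 0.36 with *Acta2*. *Kcnj8* and *Abcc9*, neighbours and partners in 1 channel, had only 0.29 and -0.15. *Kcnj8* and *Rgs5* had -0.10 over the 16 mice but 0.69 within groups, and *Kcnj8* and *Tagln* -0.63 and 0.26.

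The genes most like the members in pattern were sought among 11666 other genes with a mean of at least 5 CPM. Among those that correlated most over the 16 mice with the mean of the scaled pericyte members were *Nostrin* (0.95), *Cd300lg* (0.95), *Tmem204* (0.93) and *Eml1* (0.93). *Nostrin* had the group order of *Rgs5* in its extremes, with mean levels of 7.07 and 19.3 CPM for WT on ND and LID, and of 13.9 and 13.1 CPM for Glis3-Pax8Cre. Within groups the highest were *Spred1* (0.92), *Clip2* (0.90), *Ptcd1* (0.89), *Jam3* (0.87) and *Cd300lg* (0.86). For the contractile members they were *Dysf* (0.98), *Hspa12b* (0.96), *Cald1* (0.96), *Adgra2* (0.96) and *Lix1l* (0.96) over the 16 mice, and *Tesc* (0.88), *Hdac5* (0.86), *Phlda1* (0.86), *Uaca* (0.84) and *Fignl2* (0.83) within groups. *Cald1*, like *Acta2*, was high in WT(LID) alone, with mean levels of 64.2 and 198 CPM for WT on ND and LID, and of 61.6 and 73.7 CPM for Glis3-Pax8Cre.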

How the data were processed

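RNA-Seq was measured in thyroid glands of 16 mice in 4 groups. Per the deposited files, the authors made raw read counts per gene: TruSeq libraries were sequenced on a NextSeq500 or NovaSeq (not stated for each library), read pairs whose base quality averaged over 20 at both ends were aligned to mm10 with STAR 2.5, non-canonical introns were removed, and read pairs were counted per RefSeq gene model with featureCounts 1.5.0-p1 without regard to strand. The deposited values are raw counts. The authors used DESeq2 for their own comparisons. Here counts were filtered with filterByExpr, scaled with TMM and fitted with edgeR 4.0.16 (robust quasi-likelihood, limma 3.58.1, R 4.3.3) with 1 mean per group over all 16 mice, and p-values of 5 two-sided tests were adjusted by Benjamini-Hochberg over 16630 genes. All adjusted p-values are edgeR's unless DESeq2 1.42.0 is named, and they treat mice as the replicates. SEs come from each log2 fold change and its F statistic. Exon lengths came from GENCODE M21. The steps were tested on simulated data.

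Lists were of other pericyte genes, other smooth muscle genes, platelet-derived growth factor genes, Notch genes, the other channel subunits, paralogs of the contractile members, and markers of endothelial, fibroblast, skeletal muscle, cartilage, airway, Schwann, thymocyte, adipocyte, macrophage, erythroid, parathyroid and C, and follicular cells. Of 156 list entries 152 matched by symbol and 4 by Entrez ID. Members and lists were chosen with earlier results of these data known. Named from each list were up to 4 genes with the highest CPM per kilobase and the called gene with the largest change, and for likeness of pattern up to 5 genes with the highest correlation; other names (*Pln*, *Ednra*, *Itga8*, *Kcnj11* *Cd4* and the markers at 0) were chosen after their values were seen. Whether mice with the same replicate number resemble each other was checked in each comparison, and counts of each pair of libraries within a group differed by more than repeats of 1 library would (lowest chi-squared per degree of freedom 34.5 over 24 pairs). Alternatives were DESeq2, RLE factors, library size alone, no filter, a filter of 10 counts in every mouse, *Tg* left out, a fit of 8 mice alone, replicate numbers as blocks, an adjusted p under 0.01 with a fold change over 2, each mouse left out in turn, and 3 chosen after seeing the data: no libraries with over 100 CPM of thymocyte markers, a skeletal muscle marker score as a covariate, and neither the deepest nor the shallowest library.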

Additional observations from a re-analysis of the deposited data

Results flagged for a closer look

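The response to LID differed between genotypes for 4 members by the test of the interaction: the difference in log2 change was -2.23 for *Acta2*, -1.59 for *Tagln*, -1.42 for *Rgs5* and -1.27 for *Notch3*, each a smaller response in Glis3-Pax8Cre mice. In 40 groups of 4 mice (10 members in 4 groups), 1 mouse stood far from the other 3 in 2, and chance alone gives about 1 in 20. Both were Glis3-Pax8Cre(LID) replicate 3: *Cspg4* was at 38.2 CPM there and at 20.8 to 23.1 CPM in the other 3 mice, and *Myh11* was at 45.9 CPM there and at 32.8 to 33.7 CPM in the other 3.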

How the results depend on the processing

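Of 50 member results, 33 kept their call and direction in every alternative other than the stricter threshold. Fits of 8 mice alone give no interaction. RLE factors, no filter and leaving out *Tg* changed the call or direction of no member. The log2 fold change between genotypes under LID ranged over the alternatives from -2.55 to -2.20 for *Acta2*, -1.94 to -1.67 for *Tagln*, -1.29 to -1.03 for *Notch3* and -0.84 to -0.60 for *Rgs5*. The counts of members called changed as follows, and the cause was not tested. Between genotypes under LID, 1 was called higher with library size alone, and at an adjusted p under 0.01 with a fold change over 2 the number called lower went from 7 to 5, without *Rgs5* and *Pdgfrb*. At that stricter threshold the number called higher with LID in WT went from 7 to 6, without *Pdgfrb*, and the 4 called lower in the interaction were kept. In other alternatives, named beside the results, 1 member more was called: 8 in place of 7 lower between genotypes under LID, 3 in place of 2 higher between genotypes under ND, 8 in place of 7 higher with LID in WT, and 5 in place of 4 lower in the interaction. Between genotypes under ND, 1 was called higher with the replicate block in the 8 mice, 1 without the libraries rich in thymocyte markers, 1 without the deepest and the shallowest library and 0 at the stricter threshold. With LID in Glis3-Pax8Cre mice, 1 was called higher at the stricter threshold, and 0 were called lower at it, with the replicate block over 16 mice, without the thymocyte-rich libraries, or without the deepest and the shallowest library. With 1 mouse left out, the number called lower ranged from 0 to 1 with LID in WT (1 without WT(ND) replicate 1) and from 0 to 1 with LID in Glis3-Pax8Cre mice (0 without Glis3-Pax8Cre(ND) replicate 1 or 2, or without Glis3-Pax8Cre(LID) replicate 1, 3 or 4). Directions turned for members that were not called, and the cause was not tested: between genotypes under ND, *Cspg4* was at 0.10 with library size alone, 0.024 with the block in the 8 mice, 0.079 with the skeletal muscle score and 0.27 without the deepest and the shallowest library, *Acta2* at 0.13 without the thymocyte-rich libraries, and *Myh11* at 0.022 without the deepest and the shallowest library. With 1 mouse left out, the ranges that crossed 0 were, between genotypes under ND, -0.026 to 0.25 for *Pdgfrb* (turned without Glis3-Pax8Cre(ND) replicate 2), -0.15 to 0.23 for *Cspg4* (WT(ND) replicate 4, Glis3-Pax8Cre(ND) replicates 1 and 3), -0.00090 to 0.21 for *Notch3* (Glis3-Pax8Cre(ND) replicate 2) and -0.31 to 0.015 for *Acta2* (WT(ND) replicate 1, Glis3-Pax8Cre(ND) replicate 4). With LID in Glis3-Pax8Cre mice they were -0.20 to 0.0053 for *Rgs5* (Glis3-Pax8Cre(LID) replicate 4), -0.10 to 0.093 for *Notch3* (Glis3-Pax8Cre(ND) replicate 2, Glis3-Pax8Cre(LID) replicates 1 and 2) and -0.21 to 0.0039 for *Abcc9* (Glis3-Pax8Cre(LID) replicate 2). Beyond these and the members named beside their results, the replicate block changed no other call. Counts of whole glands do not assign a change to a cell type, counts of whole genes do not separate exon 5 of *Glis3*, and the instrument used for each library is not given, so its part was not tested. The libraries differ in depth, from 13892352 to 461077969 counts.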
